A study of Mus musculus with 12 samples.

Results

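Cytosolic ribosomal protein genes encode the proteins of the large and small subunits of the ribosome in the cytoplasm. They were taken from the gene table as annotated genes whose symbol is Rpl or Rps followed by a number, together with Rplp0, Rplp1, Rplp2 and Rpsa; pseudogene symbols, the S6 kinase genes and Rps27l were left out. The rule found 85 genes among 33625 in the table, 52 of the large and 33 of the small subunit. Of these, 83 had enough reads to be tested (50 large, 33 small). Rpl10l had at most 1 read in any library and Rpl3l at most 3, and both missed the filter on low counts. Rps19bp1 meets the symbol rule, but its product binds RPS19 and is no part of the ribosome.

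Ribosomal proteins are made in equal amounts and assembled on ribosomal RNA in the nucleolus, so their mRNAs are among the most abundant of a growing cell. Many of these mRNAs begin with a terminal oligopyrimidine tract, a C followed by a run of C and T, through which mTORC1 and LARP1 set their translation and stability. When assembly is disturbed, free RPL5, RPL11 and other ribosomal proteins bind MDM2 and stabilise p53, which links ribosome production to the control of the cell cycle.

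The libraries came from MODE-K, an established line of mouse intestinal epithelial cells, wild type, grown in flasks and exposed to gamma rays from a cobalt source. There were 4 groups of 3 libraries of total RNA: unirradiated cells (control, 0 Gy, 0 h), 4 Gy harvested after 48 h (4Gy_48h), 12 Gy after 24 h (12Gy_24h) and 12 Gy after 48 h (12Gy_48h). Unirradiated cells harvested at 24 or 48 h were not analysed here, so in any comparison with control the dose cannot be told apart from the hours that passed; the comparisons of 12 Gy at 48 h with 12 Gy at 24 h and with 4 Gy at 48 h hold dose or time fixed. The labels name the 3 libraries of a group parallel experimental groups, and p-values measure the spread between these samples.

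The libraries held 3616416 to 4831641 reads in genes. Reads in loci that the table lists as new, and not as annotated genes, took 19.8% to 21.7% of a control library, 15.1% to 16.9% at 4 Gy, 11.9% to 12.0% at 12 Gy and 24 h, and 14.0% to 15.1% at 12 Gy and 48 h. This shift moves every value that is scaled to all reads, so results are given with all genes scaled together and, where it matters, with known genes scaled alone. Control replicate 1 stood apart from the other control libraries: its counts differed from theirs with a chi-square per degree of freedom of 8.80 and 8.05, against 3.92 between the other two and 1.83 to 5.66 within the irradiated groups. Of the defining epithelial markers, Epcam, Cdh1, Esrp1 and Cldn4 had at most 1 read in a library, Krt8 and Krt19 at most 2, and Cldn7 and Ocln 0, while Krt18 had 5 to 62 and Tjp1 32 to 54. The intestinal markers had at most 9 reads each, Ptprc had 0, and Vim had 1884 to 9227. The labelled epithelial identity is not seen in these markers. The immune list of 7 genes, Ptprc among them, took 0.00221% to 0.00283% of reads in control and 0.00154% to 0.00221% at 4 Gy. At 12 Gy it took 0.00207% to 0.00349% at 24 h and 0.00408% to 0.00475% at 48 h, the last above every other library. The part of the immune list in the results was not tested. The summed fibroblast and mesenchymal list took 0.105% to 0.149% of reads in control and 0.170% to 0.217% at 4 Gy. At 12 Gy it took 0.274% to 0.325% at 24 h and 0.203% to 0.256% at 48 h. The 6 tested genes of this list did not all move together. Their log2 fold changes ran from -1.63 to 1.86 at 12 Gy and 24 h against control (1 negative, 5 positive). From 24 to 48 h after 12 Gy they ran from -0.83 to 1.41 (3 negative, 3 positive). The part of this list in the results was not tested. In bulk RNA, fewer cells of a type and less RNA per cell cannot be told apart.

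Ribosomal protein genes took a large share of all reads, lowest at 12 Gy and 48 h. The share was 25.4%, 24.6% and 25.4% in the control libraries (25.1% ± 0.445, SD, n = 3) and 26.3%, 25.7% and 26.2% at 4 Gy and 48 h (26.1% ± 0.299, n = 3). At 12 Gy it was 26.3%, 26.1% and 26.4% at 24 h (26.3% ± 0.152, n = 3) and 24.1%, 24.1% and 23.4% at 48 h (23.9% ± 0.400, n = 3). The 12 Gy, 48 h libraries lay below every other library on this measure. Between 24 and 48 h after 12 Gy the share dropped by 2.37 percentage points, and it was 2.16 points lower at 12 Gy than at 4 Gy after the same 48 h.

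As a share of reads in known genes, the set stood at 32.7%, 32.6% and 33.6% in control (33.0% ± 0.561, n = 3) and at 32.0%, 31.2% and 32.4% at 4 Gy (31.9% ± 0.638, n = 3). It stood at 30.5%, 30.3% and 30.6% at 12 Gy and 24 h (30.5% ± 0.172, n = 3) and at 29.3%, 29.3% and 28.0% at 12 Gy and 48 h (28.8% ± 0.731, n = 3). On this scale both 12 Gy groups lay below all control and 4 Gy libraries, and the 48 h group below the 24 h group. The 12 Gy, 48 h group was the lowest with either denominator, whereas the 24 h and 4 Gy groups lay above control with all reads as the denominator and below it with known genes (differences from control of 1.14 and 0.935 points against -2.47 and -1.10).

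**Figure D1:**
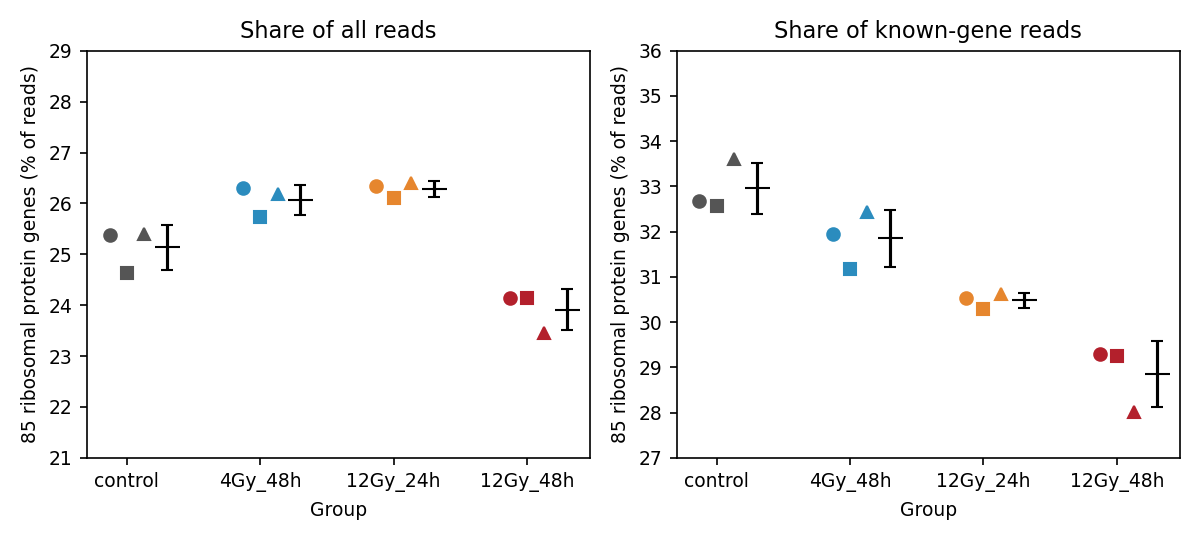
Share of reads in the 85 ribosomal protein genes in each library, in percent of all reads (left) and of reads in known genes (right), for the 4 groups; points are libraries and bars the mean ± SD of 3. The 12 Gy, 48 h group is lowest in both panels (23.9% and 28.8%), while the 24 h group is above control on the left and below it on the right. Axes do not start at 0.

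Single genes differed widely in level. Of the 83 tested members, 70 had a mean above 1000 scaled CPM, which is CPM over the library size after TMM scaling. Rpl41, which encodes the smallest protein of the large subunit, led with a mean of 10855 scaled CPM, followed by Rplp1, an acidic protein of the ribosomal stalk, with 8709 and Rps23, at the decoding centre, with 7591. Per kilobase of annotated transcript, Rpl41 (19954) and Rplp1 (17454) also ranked 1 and 2 among the members. The lowest tested members were Rpl29 (32.1), Rps2 (33.9) and Rpl26 (35.0), whose proteins had most of their reads on other loci. Transcripts of the set were short, with a median annotated length of 827 bases (345 to 5130) against 2876 for tested known genes. The coding sequence of Rpl41, 78 bases long, is shown because it is the most abundant member; no base is capitalised.
Rpl41: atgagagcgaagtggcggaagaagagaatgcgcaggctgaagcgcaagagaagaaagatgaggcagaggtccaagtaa

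Rpl41 had 12302, 8219 and 8449 scaled CPM in control, 11486, 11332 and 10304 at 4 Gy, 12824, 12409 and 13559 at 12 Gy and 24 h, and 9785, 9732 and 9857 at 12 Gy and 48 h. Control replicate 1 was far above the other control libraries, and the 24 h group lay above every other library. By edgeR's quasi-likelihood test with Benjamini-Hochberg adjustment, which is used for all adjusted p-values below, Rpl41 was higher at 12 Gy and 24 h than in control (log2 fold change 0.42 ± 0.11, adjusted p = 0.00512) and lower at 48 h than at 24 h (-0.40 ± 0.11, adjusted p = 0.0126).

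Between 24 and 48 h after 12 Gy most ribosomal protein mRNAs fell. Of 83 tested members, 52 were lower and 3 higher at 48 h (adjusted p under 0.05), where 11.4% of all 15086 tested genes were lower and 20.6% higher; among known genes in the same fit these shares were 15.6% and 9.97%. The median log2 fold change of the members was -0.29, against 0.12 over all tested genes and -0.06 over known genes, and 77 of 83 were negative. Both subunits moved: 28 of 50 large and 24 of 33 small subunit genes were lower. The libraries of the 2 groups did not overlap, with 48 h lower, for 64 members, as they did not for 18.8% of all genes. With known genes scaled alone, where 12.6% of 9816 were lower and 11.1% higher, 43 of the 52 calls held; 43 held whichever single library was left out, and 42 in both. Of the 3 genes called higher, Rps12, Rps27 and Rpl3, each turned to a lower value when all loci of its protein were counted together, as described further on.

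The dose comparison at 48 h went the same way with fewer calls. At 12 Gy, 16 of 83 members were lower than at 4 Gy and 0 higher, against 2.49% and 2.19% of all tested genes (1.55% and 2.79% of known genes). At an unadjusted p under 0.05 the numbers were 59 lower and 0 higher by edgeR, and DESeq2 called 20 lower and 0 higher. The members' median was -0.22, that of all tested genes -0.01, and 80 of 83 members were negative. The 16 comprised 8 large and 8 small subunit genes, all of which were also called with known genes scaled alone, where 32 members were lower (3.22% of known genes lower, 2.91% higher). The number depended on single libraries: without any one of the 6 libraries it was 1 to 8, and Rpl22l1 was the only member called in every case.

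At 12 Gy and 48 h, 26 of 83 members were lower than in control and 2 higher, where 20.2% of all tested genes were lower and 12.9% higher (3.74% and 18.2% of known genes). The median of the members was -0.15, against 0.01 over all genes and 0.20 over known genes, and 70 of 83 were negative. With known genes scaled alone, 61 were lower and 1 higher (8.04% and 6.76% of known genes), the 61 including all 26, and the median was -0.34. Without one library the count of lower members ranged from 11 to 31, and it was 12 without control replicate 3 and 15, 11 and 11 without 12Gy_48h replicates 1, 2 and 3. Members lower in every case included Rpl13a, Rpl22l1, Rpl36a, Rps23, Rps26 and Rps27a, which were read off after the values were seen.

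At 12 Gy and 24 h against control, 30 members were higher and 2 lower, against 18.5% and 29.4% of all tested genes (26.5% and 3.99% of known genes). The median was 0.13, below the 0.23 of known genes, and 64 of 83 members were positive. With known genes scaled alone the picture turned: 8 were higher and 17 lower (9.15% and 7.91% of known genes), and the median was -0.11. The share of members above control at 24 h therefore rests on the scale. Members that held under that scale, with loci summed and without any single library were Rpl15, Rpl29, Rpl6, Rpl7, Rpl7a and Rps9, of which Rpl7 and Rps9 were named after the values were seen. At 4 Gy and 48 h, 5 members were higher than control and 0 lower, against 4.53% and 13% of all tested genes (6.21% and 0.877% of known genes). At an unadjusted p under 0.05, 15 were higher and 1 lower by edgeR, and DESeq2 called 4 higher and 0 lower. The median was 0.06, and with known genes scaled alone 1 member was higher and 0 lower (0.754% and 0.57% of known genes; 4 and 18 members at an unadjusted p under 0.05), and the median was -0.091. Without control replicate 1 the count of higher members at 4 Gy was 16, and without control replicate 3 it was 9.

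**Figure D2:**
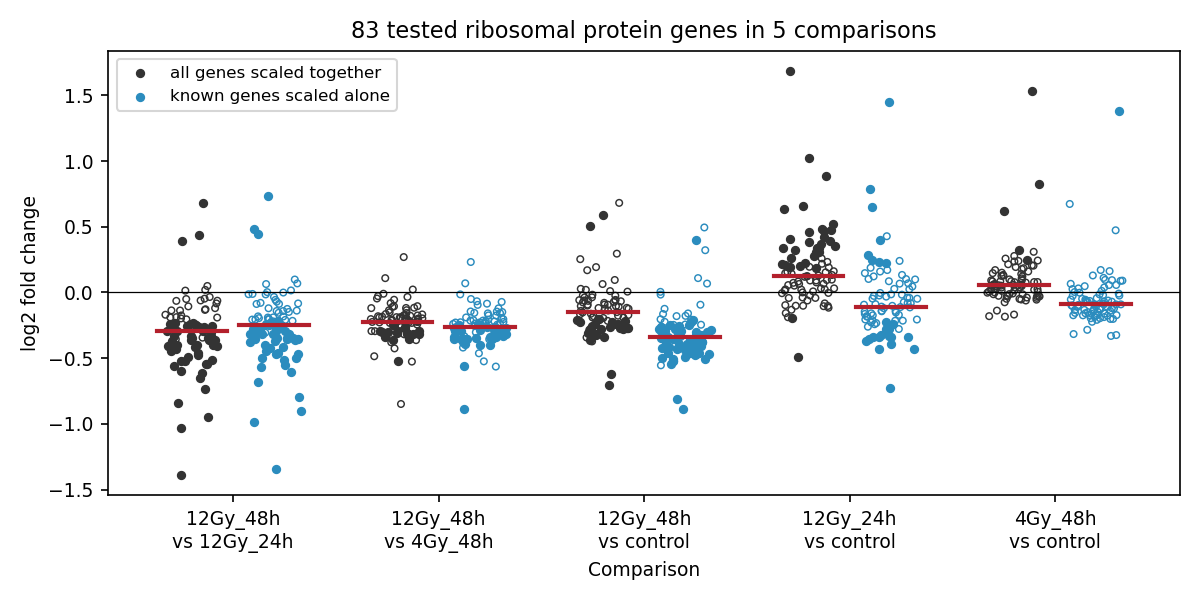
Log2 fold change of each tested member in the 5 comparisons, with all genes scaled together (dark) and with known genes scaled alone (blue); filled points have an adjusted p under 0.05 and the red lines mark medians. The medians for 12 Gy, 48 h against 24 h (-0.29 and -0.24) and against 4 Gy (-0.22 and -0.26) are alike on both scales, while that for 12 Gy, 24 h against control changes sign (0.13 and -0.11).

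Rpl22l1 and its paralog Rpl22 were both lower at 12 Gy and 48 h than in each other group. They encode versions of one protein of the large subunit, and RPL22 protein is known to repress Rpl22l1 mRNA. Part of their coding sequences is shown because the results of this pair are compared below: of 387 aligned positions 259 were identical (66.9%), the longest identical run being 26 bases. The first 300 aligned positions are printed, of which 199 were identical. Capitals mark bases that differ or have no partner in the alignment. Rpl22l1 lies at chr3:28805436-28807424 (+) and Rpl22 at chr4:152325742-152334071 (+) of GRCm38, the build of the annotation used here.
Rpl22: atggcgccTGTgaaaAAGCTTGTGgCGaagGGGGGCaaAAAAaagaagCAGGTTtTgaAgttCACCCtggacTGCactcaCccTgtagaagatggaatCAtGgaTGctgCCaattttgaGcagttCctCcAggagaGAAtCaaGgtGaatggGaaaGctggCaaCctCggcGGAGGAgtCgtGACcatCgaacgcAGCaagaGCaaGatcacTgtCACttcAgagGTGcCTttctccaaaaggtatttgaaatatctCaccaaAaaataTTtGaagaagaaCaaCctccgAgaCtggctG
Rpl22l1: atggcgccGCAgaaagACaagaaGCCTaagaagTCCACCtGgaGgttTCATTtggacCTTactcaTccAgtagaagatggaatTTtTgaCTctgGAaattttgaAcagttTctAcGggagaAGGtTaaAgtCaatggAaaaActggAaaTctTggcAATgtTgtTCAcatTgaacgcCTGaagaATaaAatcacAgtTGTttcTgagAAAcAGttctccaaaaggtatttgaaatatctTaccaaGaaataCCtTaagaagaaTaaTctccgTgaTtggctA

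Rpl22l1 had 1970, 1876 and 2149 scaled CPM in control, 1713, 1663 and 1901 at 4 Gy, 2054, 1981 and 2090 at 12 Gy and 24 h, and 1308, 1245 and 1132 at 12 Gy and 48 h. The 48 h libraries at 12 Gy lay below all 9 others, and no other groups were separated from control. It fell by 0.73 ± 0.08 (log2, adjusted p = 1.4e-05) from 24 to 48 h, by 0.52 ± 0.08 relative to 4 Gy (adjusted p = 0.00446) and by 0.70 ± 0.08 relative to control (adjusted p = 1.81e-05); with known genes scaled alone the last value was -0.89. Rpl22 had 1546, 1500 and 1682 in control, 1575, 1552 and 1650 at 4 Gy, 1687, 1612 and 1760 at 12 Gy and 24 h, and 1302, 1270 and 1262 at 12 Gy and 48 h. Its 48 h libraries at 12 Gy were again below all others, by smaller steps: -0.40 ± 0.08 against 24 h (adjusted p = 0.000917), -0.32 ± 0.08 against 4 Gy (adjusted p = 0.0264) and -0.30 ± 0.08 against control (adjusted p = 0.00595).

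The ratio of Rpl22l1 to Rpl22 does not depend on how libraries are scaled. It was 1.27, 1.25 and 1.28 in control (1.27 ± 0.0150, SD, n = 3), 1.09, 1.07 and 1.15 at 4 Gy (1.10 ± 0.0428, n = 3), 1.22, 1.23 and 1.19 at 12 Gy and 24 h (1.21 ± 0.0213, n = 3) and 1.00, 0.980 and 0.897 at 12 Gy and 48 h (0.960 ± 0.0563, n = 3). The 4 groups did not overlap on this ratio, in the order control, 12 Gy at 24 h, 4 Gy at 48 h, 12 Gy at 48 h. Each of the 5 comparisons reached p = 0.1 in a two-sided exact permutation test, the smallest that 3 against 3 libraries allows, and 0.227 after Benjamini-Hochberg adjustment over 25 such comparisons of 5 pairs.

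Of the other pairs, 3 had smaller changes in ratio at 12 Gy and 48 h against control than Rpl22l1 over Rpl22 (-0.40 on the log2 scale): 0.12 for Rpl36al over Rpl36a, 0.020 for Rpl39l over Rpl39 and 0.070 for Rpl7l1 over Rpl7. The ratio of Rps27rt to Rps27, described last, changed by more (-0.76). Rpl36al encodes a near copy of the large subunit protein of Rpl36a, with coding sequences 87.9% identical. Its ratio to Rpl36a was 0.288 ± 0.0209 in control, 0.279 ± 0.0024 at 4 Gy, 0.276 ± 0.0018 at 12 Gy and 24 h and 0.313 ± 0.0143 at 12 Gy and 48 h (n = 3 each). Rpl36a was lower at 12 Gy and 48 h in all 3 comparisons (-0.24, -0.30 and -0.28 against 24 h, 4 Gy and control; adjusted p = 0.0144, 0.023 and 0.0051), and Rpl36al passed the test in none (-0.06, -0.13 and -0.16; adjusted p = 0.591, 0.34 and 0.125). Rpl39l, known from germ cells and 85.3% identical to Rpl39 in its coding sequence, kept ratios of 0.192 to 0.201 to Rpl39 in the group means. Rpl7l1, a distant relative of Rpl7 that acts in assembly of the large subunit (52.8% identical), changed with Rpl7: it was higher at 12 Gy and 24 h than in control (0.48 ± 0.11, adjusted p = 0.00134) and lower again at 48 h (-0.49 ± 0.11, adjusted p = 0.00239). Rpl7 itself rose by 0.52 ± 0.07 (adjusted p = 1.57e-05) and then fell by 0.62 ± 0.07 (adjusted p = 1.54e-05), on the scale of all genes.

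**Figure D3:**
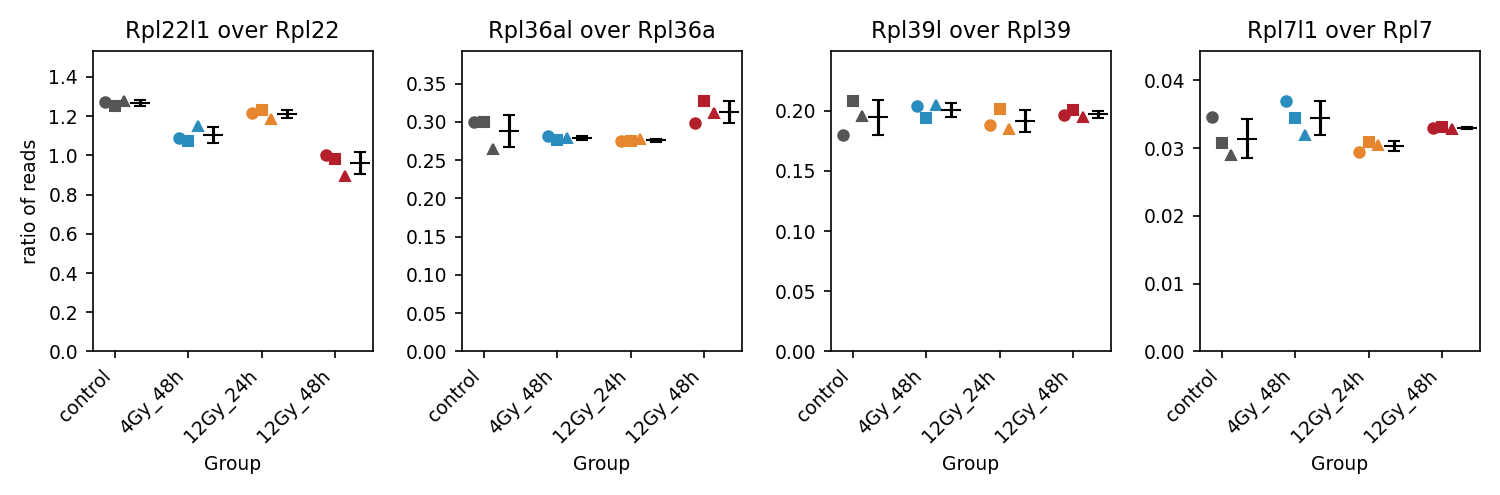
Ratio of reads by library for Rpl22l1 over Rpl22, Rpl36al over Rpl36a, Rpl39l over Rpl39 and Rpl7l1 over Rpl7. Bars give the mean ± SD of 3 libraries per group, and each panel has its own axis. Rps27rt over Rps27 is not drawn. Rpl22l1 over Rpl22 goes from 1.27 in control to 0.960 at 12 Gy and 48 h, while Rpl39l over Rpl39 stays between 0.192 and 0.201 in the group means.

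Rps27 and its retrogene copy Rps27rt show how far reads of like genes can be told apart. Their coding sequences were the same over all 255 bases, printed once.
Rps27 and Rps27rt: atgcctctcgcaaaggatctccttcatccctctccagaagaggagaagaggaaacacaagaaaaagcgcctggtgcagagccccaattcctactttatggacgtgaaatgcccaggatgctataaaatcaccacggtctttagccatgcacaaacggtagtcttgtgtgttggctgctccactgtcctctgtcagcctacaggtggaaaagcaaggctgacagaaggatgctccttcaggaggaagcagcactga

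Rps27rt had 3083 to 4312 scaled CPM over the 12 libraries and Rps27 49.9 to 90.2, so the ratio of the copy to the gene was 75.9 ± 5.27 in control and 44.7 ± 5.53 at 12 Gy and 48 h (n = 3 each). Reads of an identical coding sequence cannot be split by that sequence, and the values of this pair are uncertain one by one. Rps27 alone was called higher at 12 Gy and 48 h than in control (0.51 ± 0.15, adjusted p = 0.0155) and Rps27rt lower (-0.27 ± 0.08, adjusted p = 0.0111); the 2 loci summed were lower (-0.23, adjusted p = 0.022).

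The acidic stalk recruits elongation factors to the ribosome, with RPLP0 as its base and RPLP1 and RPLP2 as its arms. Rplp0 had 6113, 5522 and 6407 scaled CPM in control, 6189, 6141 and 6467 at 4 Gy, 7350, 7608 and 7854 at 12 Gy and 24 h, and 5650, 5433 and 5654 at 12 Gy and 48 h. The 24 h libraries were above all others, and the 48 h libraries overlapped control. Rplp0 fell by 0.45 ± 0.07 from 24 to 48 h (adjusted p = 0.000155). Rplp1 had 8583, 8498 and 9620 in control, 8701, 8446 and 9083 at 4 Gy, 9337, 9254 and 9853 at 24 h and 7823, 7819 and 7495 at 12 Gy and 48 h. Its 12 Gy, 48 h libraries were below all others, with a fall of 0.30 ± 0.07 from 24 h (adjusted p = 0.00288) and 0.21 ± 0.07 from control (adjusted p = 0.0234). Rplp2 passed no test; its change from 24 to 48 h was -0.20 ± 0.09 (adjusted p = 0.0894).

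RPL5, RPL11 and RPL23 bind MDM2. Rpl11 had 5970, 4747 and 4936 scaled CPM in control, 6164, 5806 and 5404 at 4 Gy, 6011, 5729 and 5423 at 12 Gy and 24 h, and 4571, 4583 and 4361 at 12 Gy and 48 h. Its 12 Gy, 48 h libraries were the lowest of the 12. It was lower at 12 Gy and 48 h than at 24 h (-0.34 ± 0.09, adjusted p = 0.00609) and than at 4 Gy (-0.36 ± 0.09, adjusted p = 0.0252), and did not pass against control (-0.21 ± 0.09, adjusted p = 0.0656). Rpl5, whose product joins RPL11 on 5S ribosomal RNA, passed no test (24 to 48 h, -0.03 ± 0.10, adjusted p = 0.822; against control at 48 h, -0.19 ± 0.10, adjusted p = 0.155). Rpl23 likewise passed none, with -0.08 ± 0.08 from 24 to 48 h (adjusted p = 0.451). Whether Rpl11 and Rpl5 differ in their change was not tested.

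Other members were named for their known roles. From 24 to 48 h after 12 Gy, Rps6, the substrate of the S6 kinases, fell by 0.29 ± 0.08 (adjusted p = 0.00864). Rps27a, which is made as a fusion with ubiquitin, had 3533, 3275 and 3561 scaled CPM in control, 3611, 3352 and 3392 at 4 Gy, 4021, 3649 and 3881 at 12 Gy and 24 h, and 2966, 2827 and 2521 at 12 Gy and 48 h. Every 12 Gy, 48 h library was below the other 9, with -0.47 ± 0.08 against 24 h (adjusted p = 0.000281), -0.32 ± 0.08 against 4 Gy (adjusted p = 0.0294) and -0.32 ± 0.08 against control (adjusted p = 0.00485). Rpsa, also known as the laminin receptor, had 2756, 3081 and 3249 in control, 3536, 3398 and 3609 at 4 Gy, 3931, 3964 and 4165 at 12 Gy and 24 h, and 3242, 3135 and 3120 at 12 Gy and 48 h. Its level was above control in every 24 h library and within the range of control at 48 h (24 h against control 0.41 ± 0.07, adjusted p = 0.000206; 48 against 24 h -0.34 ± 0.07, adjusted p = 0.0021). Rps3, at the mRNA entry channel, and Rpl10, which joins the large subunit last, moved alike: 0.31 ± 0.07 (adjusted p = 0.00168) and 0.33 ± 0.07 (adjusted p = 0.00114) at 24 h against control, then -0.41 ± 0.07 (adjusted p = 0.000458) and -0.40 ± 0.07 (adjusted p = 0.000723).

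Rpl6 and Rpl15, of the large subunit, were higher at 24 h than in control under each scale, and both genes hold over 99% of the reads of their protein. Rpl6 had 2578, 2104 and 2077 scaled CPM in control, 2519, 2605 and 2558 at 4 Gy, 3310, 3630 and 3532 at 12 Gy and 24 h, and 2182, 2172 and 2306 at 12 Gy and 48 h. All 24 h libraries were above all others, and 48 h lay within control. The change was 0.63 ± 0.08 at 24 h against control (adjusted p = 1.26e-05) and -0.65 ± 0.08 from 24 to 48 h (adjusted p = 3.97e-05). Rpl15 had 4760, 4821 and 5347 in control, 6051, 5901 and 5735 at 4 Gy, 6734, 6443 and 7488 at 12 Gy and 24 h, and 4598, 4647 and 4745 at 12 Gy and 48 h. Its 4 groups were separated, with both 4 Gy at 48 h (0.24 ± 0.07, adjusted p = 0.0272) and 12 Gy at 24 h (0.47 ± 0.07, adjusted p = 4.99e-05) above control, and 12 Gy at 48 h below 4 Gy (-0.34 ± 0.07, adjusted p = 0.0163). Rpl7a, also called higher at 4 Gy, had 1574, 1680 and 1796 in control and 2100, 2178 and 2029 at 4 Gy (0.32 ± 0.07, adjusted p = 0.00643). Neither gene passed at 4 Gy with known genes scaled alone (Rpl15 0.095, adjusted p = 0.585; Rpl7a 0.17, adjusted p = 0.273).

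Genes with the largest falls against control at 12 Gy and 48 h, beside Rpl22l1, included Rpl10a, Rpl13a and Rps26. Rpl13a, known for its release from the ribosome to silence inflammatory mRNAs, had 3484, 3185 and 3738 scaled CPM in control and 2833, 2759 and 2514 at 12 Gy and 48 h (-0.36 ± 0.08, adjusted p = 0.00315). Rps26, which contacts mRNA at the exit channel, had 5803, 4881 and 5466 against 4323, 4275 and 4325 (-0.32 ± 0.07, adjusted p = 0.00223). For both genes every 48 h library was below every control library. Rpl10a fell by 0.62 ± 0.15 (adjusted p = 0.00551) from 415, 330 and 422 to 330, 213 and 214, but its gene holds only 14.9% of the reads of its protein; with its other loci added the change was -0.41 (adjusted p = 0.00135). Rps23 was the member besides Rps12 called lower at 24 h against control (-0.20 ± 0.07, adjusted p = 0.0237), and it was lower at 48 h too (-0.26 ± 0.07, adjusted p = 0.00746). Rps4x, on the X chromosome, was lower at 12 Gy and 48 h than in each other group (-0.41, -0.25 and -0.20 against 24 h, 4 Gy and control; adjusted p = 0.000296, 0.044 and 0.0302). Rps19bp1, no ribosomal protein, passed no test (0.02 ± 0.12 from 24 to 48 h, adjusted p = 0.923).

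A ribosomal protein gene in these tables is often not the only locus that carries its reads. By the protein match that the table gives for each locus, 167 other loci matched the same ribosomal protein as a member, 143 of them new loci, 21 known genes and 3 noncoding loci, and they touched 72 of 84 proteins. Together they took 5.30% of reads in control, 5.35% at 4 Gy, 5.18% at 12 Gy and 24 h and 4.89% at 12 Gy and 48 h. The member held at least 99% of its protein's reads in 48 proteins, under 90% in 24, under 50% in 12 and under 10% in 6. Those 6 were Rps2 (0.776%), Rpl26 (0.856%), Rpl29 (1.77%), Rps18 (2.49%), Rpl3 (4.33%) and Rpl23a (8.76%). Rps18 passed no test by itself. Rps12 and Rps29 held 47.3% and 46.1%. How reads were shared between like loci is not given in the sources used here, and its part in the values of these genes was not tested.

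For several members the gene and its other loci moved in opposite directions. Rps12 had 2336, 2482 and 2655 scaled CPM in control, 1431, 1690 and 2196 at 12 Gy and 24 h and 2981, 3028 and 2532 at 12 Gy and 48 h. Its other loci had 2393, 2908 and 3118 in control, 3875, 3551 and 3356 at 24 h and 1899, 1857 and 2094 at 48 h. The gene was lowest where its other loci were highest. The sum was 4729, 5389 and 5773 in control, 5306, 5241 and 5552 at 24 h and 4879, 4885 and 4625 at 48 h. At 24 h against control the gene fell by 0.49 ± 0.12 (adjusted p = 0.00272), its main other locus rose by 0.35 (adjusted p = 0.00493) and the sum changed by 0.08 (adjusted p = 0.375). From 24 to 48 h the gene rose by 0.68 ± 0.12 (adjusted p = 0.000512), and the sum fell by 0.20 (adjusted p = 0.0488).

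Rps29 showed the reverse. The gene had 3311, 2340 and 2323 scaled CPM in control, 4893, 4655 and 5200 at 12 Gy and 24 h and 2358, 2403 and 2881 at 48 h, and its other locus 3937, 4597 and 5327 in control and 2664, 2871 and 2654 at 24 h. The sum lay between 6937 and 7650 in control, 7527 and 7854 at 24 h and 6286 and 6519 at 12 Gy and 48 h. At 24 h against control the gene rose by 0.89 ± 0.13 (adjusted p = 2.13e-05), the other locus fell by 0.76 (adjusted p = 1e-05), and the sum did not pass (0.14, adjusted p = 0.0685); the fall from 24 to 48 h held in the sum (-0.28, adjusted p = 0.00192, against -0.95 for the gene). These examples were chosen after their values were seen.

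**Figure D4:**
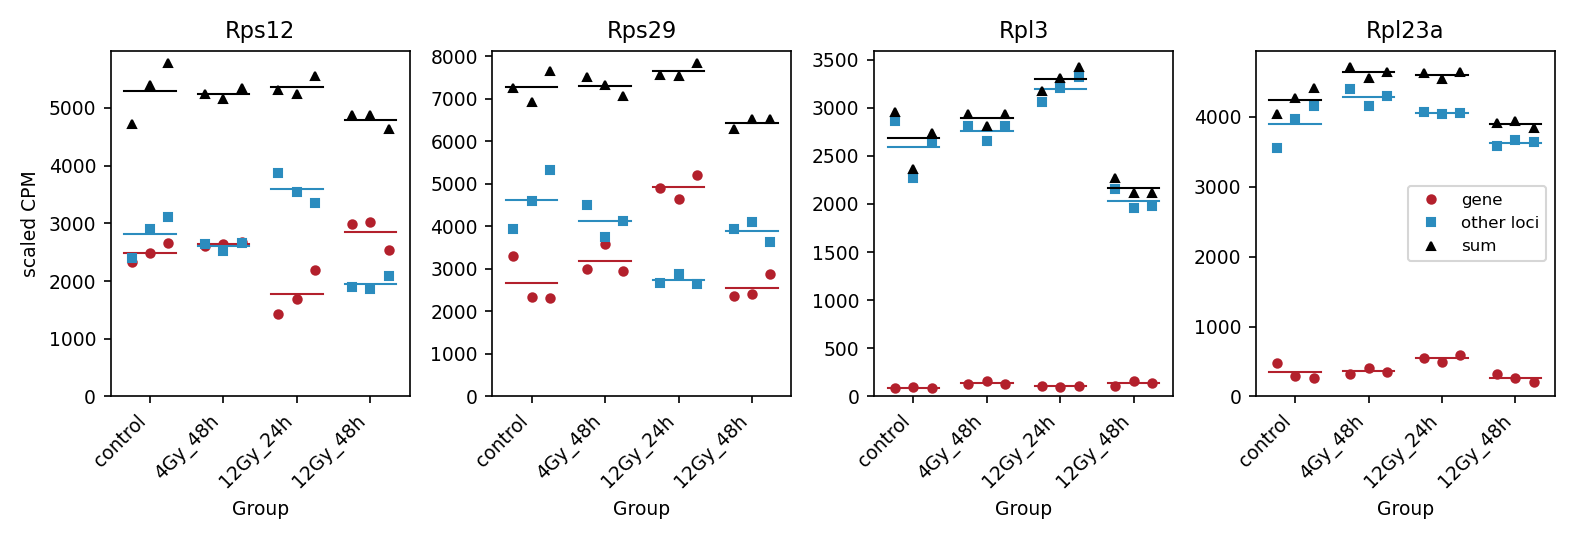
Scaled CPM by library for Rps12, Rps29, Rpl3 and Rpl23a, for the gene (red), the other loci of the same protein (blue) and their sum (black), with lines at group means. For Rps12 and Rps29 gene and other loci move in opposite directions between control and 12 Gy at 24 h, while the sums stay closer together (4729 to 5773 and 6937 to 7854 in those 2 groups).

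For Rpl3, Rpl29, Rpl26 and Rpl23a, summing loci made the changes given here smaller or reversed them. For Rps2, described next, the change at 24 h was larger when summed. Rpl3, whose product lies near the peptidyl transferase centre, was called higher from the gene alone at 12 Gy and 48 h (0.59 ± 0.14 against control, adjusted p = 0.00364), with 92.6, 98.6 and 84.4 scaled CPM in control and 114, 161 and 139 at 48 h. Its other locus had 2863, 2266 and 2650 in control, 3057, 3207 and 3316 at 24 h and 2152, 1956 and 1979 at 48 h. The other locus thus held most reads and went the other way. Summed, Rpl3 was lower at 48 h than in control (-0.28, adjusted p = 0.00956) and than at 24 h (-0.64, adjusted p = 1.54e-05). Rpl29 rose by 1.69 ± 0.19 at 24 h from the gene alone (adjusted p = 2.43e-06; 21.9, 15.9 and 15.3 in control against 53.6, 57.6 and 61.0) and by 0.23 summed (adjusted p = 0.0116). Rpl26, called higher at 4 Gy (1.53 ± 0.25, adjusted p = 0.00061) and at 24 h (1.03 ± 0.26, adjusted p = 0.00312) from the gene alone, changed by 0.07 and 0.09 summed (adjusted p = 0.527 and 0.247). Rpl23a went from 0.66 ± 0.19 at 24 h (adjusted p = 0.00972) to 0.18 (adjusted p = 0.0207), and from -1.03 ± 0.20 between 24 and 48 h (adjusted p = 0.000943) to -0.28 (adjusted p = 0.003).

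Rps2, at the mRNA entry channel, was the protein with the largest rise of all 82 summed at 24 h. Its loci together had 3942, 3155 and 3524 scaled CPM in control, 4158, 4678 and 4478 at 4 Gy, 5487, 5763 and 6148 at 12 Gy and 24 h, and 3771, 3481 and 4089 at 12 Gy and 48 h. The 24 h libraries were above all others and the 4 Gy libraries above control, while 12 Gy at 48 h overlapped control. The sum rose by 0.78 ± 0.08 at 24 h (adjusted p = 1.09e-06) and by 0.36 ± 0.08 at 4 Gy (adjusted p = 0.00701), and fell by 0.65 ± 0.08 from 24 to 48 h (adjusted p = 2.96e-05); the gene alone reached 0.38 ± 0.15 at 24 h (adjusted p = 0.0402).

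Counted by protein, 67 of 82 were lower at 48 h than at 24 h after 12 Gy and 0 higher (13.2% and 19.5% of all 14992 genes), with a median of -0.32. All 52 members called lower from the gene alone were among them. Against 4 Gy, 21 were lower and 0 higher (2.75% and 2.33%; median -0.22), and against control 27 lower and 0 higher (19.8% and 14.6%; median -0.15). At 12 Gy and 24 h, 39 were higher than control and 0 lower (22.7% and 28.8%; median 0.16), and at 4 Gy 7 were higher and 0 lower (5.82% and 12.7%; median 0.07). This count by protein was chosen after seeing the data, and it was run with all genes scaled together, not with known genes scaled alone. Every direction with 0 calls by protein also had 0 at an unadjusted p under 0.05 by edgeR; this count was not run with DESeq2.

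**Figure D5:**
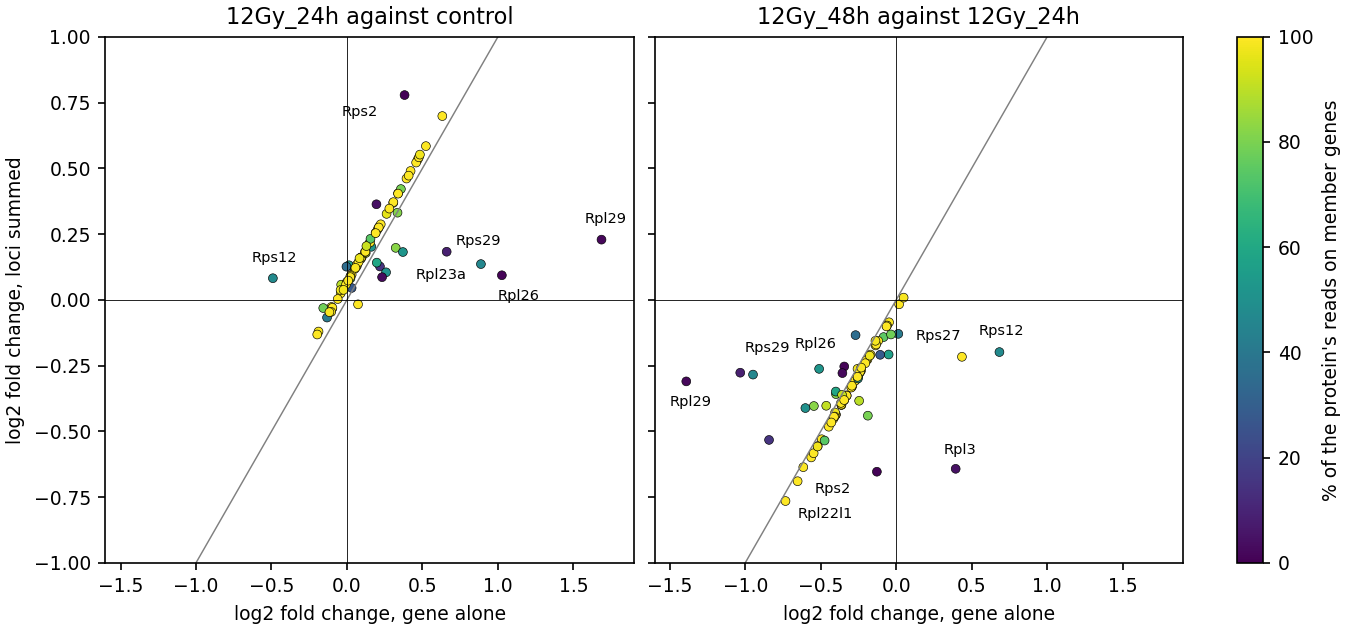
Log2 fold change from the gene alone (horizontal) against that with all loci of the protein summed (vertical), for 12 Gy at 24 h against control and 12 Gy at 48 h against 24 h; colour gives the percentage of the protein's reads on member genes and the line marks equal values. Proteins with most reads on the member lie along the line, and those with few, such as Rpl29 (1.69 and 0.23) and Rpl3 (0.39 and -0.64), leave it.

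The start of the transcript was examined for the terminal oligopyrimidine tract. RefSeq windows of GRCm38.p6 were at hand for 65 members. The tract was searched on the transcript strand as a C at the annotated start followed by at least 4 letters that were all C or T. It was found in 14 of 65 members (21.5%), against 813 of 27025 genes with such windows (3.01%). A gene with several windows counted if any of them had the tract. The search takes the annotated start as it is, and a tract displaced by a few bases is not counted. Windows of members named in the results are shown with 15 bases before the start and 15 from it, in capitals where the tract runs; Rps6 lies at chr4:86857353-86857382 (−), Rpl15 at chr14:18270972-18271001 (−) and Rplp2 at chr7:141447636-141447665 (+).
Rps6: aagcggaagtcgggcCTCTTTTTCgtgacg
Rpl15: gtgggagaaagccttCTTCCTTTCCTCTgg
Rplp2: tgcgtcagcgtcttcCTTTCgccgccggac
Rps27: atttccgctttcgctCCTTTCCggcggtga
Rps27rt: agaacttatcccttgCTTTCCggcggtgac

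Members with the tract at the annotated start did not stand out in the size of their changes. Members without it there can carry a tract displaced by a few bases, so this split cannot decide whether the tract matters. From 24 to 48 h after 12 Gy the median log2 fold change was -0.29 with the tract at the start. It was -0.27 for the 49 tested members without it there. For 12 against 4 Gy the medians were -0.19 with it and -0.21 without. Against control the medians were -0.12 and -0.16 for 12 Gy at 48 h, 0.14 and 0.13 for 12 Gy at 24 h, and 0.07 and 0.06 for 4 Gy. Over the 73 members above 500 scaled CPM, Spearman's rho between annotated transcript length and log2 fold change was -0.048 from 24 to 48 h, -0.11 for 12 against 4 Gy and, against control, 0.054 for 12 Gy at 48 h, 0.090 for 12 Gy at 24 h and 0.19 for 4 Gy. These are descriptions across genes that share the same libraries. The mean annotated transcript length of the other known genes, weighted by their reads, was 2230 ± 65.2 bases in control and 2259 ± 26.6 at 4 Gy. It was 2219 ± 5.58 at 12 Gy and 24 h and 2305 ± 17.6 at 12 Gy and 48 h (n = 3 each). This value depends on which genes were read and uses no length of the reads, so it does not measure RNA quality. Its part in the results was not tested.

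Fau and Rack1 fall outside the symbol rule and also belong to the cytosolic ribosome. Fau, which encodes RPS30 fused to a ubiquitin-like protein, was lower at 12 Gy and 48 h than in control (-0.39, adjusted p = 0.00111) and than at 24 h (-0.33, adjusted p = 0.00452), with 1626 ± 40.4 scaled CPM against 2130 ± 99.4 and 2037 ± 76.0 (n = 3 each); at 24 h against control it gave -0.065 (adjusted p = 0.52) and, with known genes scaled alone, -0.30 (adjusted p = 0.0131). Rack1, a scaffold on the small subunit, was higher at 24 h than in control (0.29, adjusted p = 0.0429; 0.054, adjusted p = 0.798, with known genes scaled alone).

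Translation factors and other genes whose mRNAs start with the tract went the same way between 24 and 48 h after 12 Gy: 12 of 18 were lower and 0 higher by edgeR (15 and 1 at an unadjusted p under 0.05; 15 and 0 by DESeq2), with a median of -0.38, where 11.4% of all tested genes and 15.6% of known genes were lower. Npm1, a nucleolar chaperone, fell by 0.68 (adjusted p = 2.21e-05), Eef1a1, the elongation factor that delivers tRNA, by 0.49 (adjusted p = 5.97e-05), Eef1g by 0.61 (adjusted p = 0.000104) and Hnrnpa1, a splicing regulator, by 0.83 (adjusted p = 0.000219). At 24 h against control 13 of 18 were higher and 0 lower by edgeR, with or without adjustment, and by DESeq2, with a median of 0.45, where 18.5% of all tested genes and 26.5% of known genes were higher. With known genes scaled alone 8 were higher and 0 lower, against 9.15% and 7.91% of known genes. Eef1a1 had 8232 ± 322 scaled CPM at 24 h against 5678 ± 406 in control (n = 3 each; 0.54, adjusted p = 5.49e-06), and Eif3l, Eif3e and Pabpc1 rose by 0.93, 0.78 and 0.66 (adjusted p = 1.45e-05, 2.03e-05 and 2.77e-05). These 4 were above control also with known genes scaled alone (0.30, 0.70, 0.54 and 0.43). At 12 Gy and 48 h against control 3 were higher and 1 lower with a median of 0.062. Of all tested genes 12.9% were higher and 20.2% lower, and of known genes 18.2% and 3.74%. With known genes scaled alone 0 were higher and 6 lower, with a median of -0.12, against 6.76% and 8.04% of known genes. For 12 against 4 Gy 0 were higher and 2 lower (Npm1 and Hnrnpa1, -0.44 and -0.54), against 2.19% and 2.49% of all tested genes. For 4 Gy against control 1 was higher and 0 lower (Pabpc1, 0.47), against 4.53% and 13% of all tested genes. With known genes scaled alone the counts for 4 Gy against control were 0 and 0.

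Mitochondrial ribosomal protein genes, which serve the separate ribosome of mitochondria, gave 27 lower and 0 higher of 77 tested from 24 to 48 h by edgeR (37 and 0 at an unadjusted p under 0.05; 35 and 0 by DESeq2), with a median of -0.28, where 11.4% of all tested genes and 15.6% of known genes were lower. The counts were 21 and 0 with known genes scaled alone, where 12.6% of known genes were lower and 11.1% higher. For 12 against 4 Gy 4 were lower and 0 higher (2 higher and 15 lower at an unadjusted p under 0.05). Of all tested genes 2.49% were lower in that comparison, and of known genes 1.55%. For 12 Gy at 48 h against control 13 were lower and 2 higher. This share lower was below the 20.2% of all tested genes and above the 3.74% of known genes. With known genes scaled alone 23 were lower and 0 higher, against 8.04% and 6.76% of known genes. For 12 Gy at 24 h against control 20 were higher and 2 lower (median 0.17), a share higher near the 26.5% of known genes. With known genes scaled alone this turned to 3 higher and 7 lower (median -0.070), against 9.15% and 7.91% of known genes. At 4 Gy against control the counts were 0 and 0 (8 higher and 1 lower at an unadjusted p under 0.05; 0 by DESeq2). Their summed share of reads was 0.753% to 0.835% in control and 0.747% to 0.776% at 12 Gy and 48 h, ranges that overlap. It was 0.793% to 0.796% at 4 Gy and 0.812% to 0.826% at 12 Gy and 24 h, both above the 12 Gy, 48 h range. Whether the cytosolic and mitochondrial sets differ was not tested.

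Of the genes that control ribosome production, 16 of 18 were tested. At 24 h against control 4 were higher and 0 lower, near the 26.5% of known genes higher, and with known genes scaled alone 1 was higher and 1 lower (median -0.034). Among the 4 were Myc, which drives ribosome genes (0.57, adjusted p = 0.00202; 0.33, adjusted p = 0.0777, with known genes scaled alone) and Eif4ebp1, the translation repressor under mTORC1 (0.65, adjusted p = 0.00106; 0.42, adjusted p = 0.0372, with known genes scaled alone). From 24 to 48 h Myc fell by 0.78 (adjusted p = 0.000452) to 51.9 ± 2.04 scaled CPM from 89.0 ± 2.70, and Eif4e, the cap-binding protein, by 0.35 (adjusted p = 0.0409; adjusted p = 0.0771 with known genes scaled alone). Sesn2 and Tsc2, both inhibitors upstream of mTORC1, rose by 0.75 (adjusted p = 0.00211) and 0.48 (adjusted p = 0.0249). The calls from 24 to 48 h were thus 2 higher and 2 lower of 16, with a median of -0.057. Of all tested genes 20.6% were higher and 11.4% lower, and of known genes 9.97% and 15.6%. The list's shares lay near these. DESeq2 called 1 higher and 3 lower, and with known genes scaled alone edgeR called 2 higher and 1 lower. Sesn2 was also higher at 48 h than in control (0.42, adjusted p = 0.045; 0.23, adjusted p = 0.31, with known genes scaled alone), the only call in that comparison, and 12 against 4 Gy gave 0 calls by edgeR and by DESeq2 (1 higher and 2 lower at an unadjusted p under 0.05). Of 12 ribosomal protein chaperones and 5S assembly factors, 5 were lower and 0 higher from 24 to 48 h by edgeR, with or without adjustment, and by DESeq2. Of all tested genes 11.4% were lower, and of known genes 15.6%. With known genes scaled alone the counts were again 5 and 0, where 12.6% of known genes were lower. Rrs1, which brings RPL5 and RPL11 into the ribosome, fell by 0.86 (adjusted p = 0.00185). It had risen at 24 h (0.94, adjusted p = 0.000365, and 0.70, adjusted p = 0.00935, with known genes scaled alone). Of 7 ribosomal protein pseudogene symbols, 4 were tested, and at 12 Gy and 48 h against control 2 were higher and 0 lower. In that comparison 12.9% of all tested genes and 18.2% of known genes were higher.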

How the data were processed

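RNA of 12 libraries in 4 groups of 3 was measured by sequencing of total RNA. The authors deposited raw counts of reads per gene and library and, per the file headers, CPM values of the same counts, which recomputation from the counts matched within 4.78e-06. The submitters' processing notes name cutadapt 1.9 and FastQC; how the reads were aligned and counted, and on which genome build, is not given in these sources. The labels name an Illumina protocol while identifiers of new loci begin with ONT, and how reads were shared between like loci is not stated. The deposited DESeq2 fold changes and p-values of the authors were not used.

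Counts of all 33625 genes went into 1 edgeR fit (version 4.0.16, R 4.3.3) with TMM scaling, filterByExpr, 1 mean per group and the quasi-likelihood test of 5 contrasts. This left 15086 tested genes; p-values are two-sided and Benjamini-Hochberg adjusted over all of them, with 0.05 as the threshold. Log2 fold changes are given ± SE and values per library as CPM over the TMM-scaled library size. The biological coefficient of variation was 0.144, which with 3 libraries a group limits the precision. The fit was also run on counts simulated from its own means and spread. These held no shift of reads between new loci and known genes, so that run cannot judge how such a shift moves the results. Ratios of paralogs were compared by exact permutation tests (scipy 1.17.1). Positions and lengths come from GENCODE M21 on GRCm38, which may not be the authors' build, and start windows from RefSeq GRCm38.p6.

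The alternatives were RLE scaling, DESeq2 1.42.0, known genes alone (9816 tested), no low-count filter, only genes reaching 5 CPM on average in 1 or more groups, only the 2 groups compared, the replicate number as a block, and each library left out in turn. A count by protein, in which loci with the same Swiss-Prot match were summed, was added after seeing the data. The members and the gene lists were chosen with earlier results of these data known. Genes were named by a rule: the 5 largest rises and falls per comparison, the stalk genes, Rpl5, Rpl11 and Rpl23, Rps6, Rpsa, Rps27a, Rpl3, Rps3 and Rpl10, paralogs, the 3 highest and 3 lowest members, and at most 4 called genes per other list; others are stated as chosen after their values were seen, and some genes meeting this rule are not reported here. Replicate numbers did not appear to pair samples. Deviations of log CPM from the group mean were correlated between libraries of different groups. The correlation lay between -0.11 and 0.12 over 18 same-numbered pairs and between -0.12 and 0.17 for libraries with different numbers.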

Additional observations from a re-analysis of the deposited data

How the results depend on the processing

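The falls from 24 to 48 h after 12 Gy and from 4 to 12 Gy at 48 h kept their direction under every alternative run; the comparisons of 12 Gy at 24 h and of 4 Gy with control did not. With known genes scaled alone, the medians against control were -0.11 (12 Gy, 24 h) and -0.091 (4 Gy), both reversed, and -0.34 (12 Gy, 48 h); members higher numbered 8, 1 and 1, members lower 17 at 24 h and 61 at 12 Gy and 48 h, and 32 were lower against 4 Gy. With the total of known genes as denominator, the difference in summed share was -4.11 points for 12 Gy at 48 h, -2.47 at 24 h and -1.10 at 4 Gy against control, -1.63 from 24 to 48 h and -3.00 against 4 Gy; with other loci of the same protein added, the last was -2.62. Without a low-count filter the medians were 0.28 (12 Gy, 24 h), 0.13 (4 Gy) and -0.077 (12 Gy, 48 h) against control and -0.38 from 24 to 48 h, with 54, 14, 4 and 1 members higher and 1 and 7 lower than control at 12 Gy after 24 and 48 h. RLE scaling gave a median of -0.37 and 1 member higher from 24 to 48 h and 1 lower at 24 h against control; DESeq2 gave -0.40, 1 and 1, and a median of 0.22 at 24 h. With only the 2 groups compared, 1 member was lower at 24 h and 14 at 12 Gy and 48 h against control, and 37 were lower against 4 Gy. By protein, added after seeing the data, 0 were higher from 24 to 48 h, 0 higher at 12 Gy and 48 h and 0 lower at 24 h against control. Of single genes, summing reversed Rpl3 (-0.28 against control at 48 h, -0.64 from 24 h), Rps12 (0.082 at 24 h against control, -0.20 from 24 to 48 h) and Rps27 (-0.23 and -0.22), and known genes alone reversed Rps4x at 24 h (-0.027). Leaving out one library gave 44 to 62 lower, 1 to 2 higher and medians of -0.40 to -0.28 from 24 to 48 h; 1 to 8 lower, 0 higher and -0.23 to -0.20 against 4 Gy; 11 to 31 lower, 1 to 4 higher and -0.15 to -0.10 for 12 Gy at 48 h, 30 to 43 higher, 1 to 4 lower and 0.15 to 0.25 for 24 h, and 3 to 16 higher, 0 lower and 0.045 to 0.11 for 4 Gy against control. With the replicate block, 51 members were lower from 24 to 48 h, 13 against 4 Gy and 27 against control, and no count moved by over 1.5 times. The cause of these shifts was not tested.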
